A study of Homo sapiens with 8 samples.

Results

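The sites described here are the stretches of accessible chromatin, taken from the authors' lists, that lie in 7 intervals around 8 genes of the WNT pathway: WNT5A, WNT6, WNT10A, RSPO3, LEF1, DKK1, SFRP1 and AXIN2. A listed site was counted when its centre fell inside an interval fixed on the hg19 build, and 44 of the 14191 listed sites did so. Of these, 22 of 8154 came from the list of sites opened by the morphogens ("opened sites") and 22 of 6037 from the list of sites that the morphogens opened but p63 closed ("p63-closed sites"). The intervals have a total length of 5.2 Mb.

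Chromatin was profiled by ATAC-seq, which reads open DNA through insertions of the Tn5 transposase, in the human embryonic stem cell line H9. There were 8 samples in 4 groups of 2. Cells of the genotype p63-/- (p63KO) were collected at day 7 of differentiation to surface ectoderm, in medium with 1 uM retinoic acid and 5 ng/ml BMP4, and so were wild-type cells. A line of genotype TetO:Tp63+/- (p63GOF) was collected after 2 days of doxycycline (2 ug/ml) without the morphogens, and untreated wild-type cells were collected at day 0. The labels attach the opened list to wild-type cells at day 7 and day 0, and the p63-closed list to p63KO and wild-type cells at day 7. No list is attached to p63GOF. By their names both lists hold sites that the morphogens opened, yet they share 0 site names. Which contrast and thresholds put a site in one list and not in the other is not given in the sources used here, and every share and split below rests on that choice. Both lists hold only positions and site names, so depth is unknown, no sample or replicate has a value here, and the direction of change at a site is the authors' own. Whether the cells carried the defining markers of stem cells or surface ectoderm could not be checked from positions.

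WNT ligands are secreted proteins that bind Frizzled receptors and LRP co-receptors. In the canonical branch this stops a destruction complex, built on the scaffold AXIN, from breaking down beta-catenin, which then enters the nucleus and activates genes together with transcription factors of the TCF/LEF family. R-spondins raise the response by keeping Frizzled at the cell surface, while the secreted DKK and SFRP proteins lower it. In surface ectoderm the pathway is known for its part in epidermal fate and in the formation of hair follicles, teeth and other appendages, and p63 is the transcription factor on which stratified epithelium depends.

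RefSeq promoter sequences were found for 6 of the 8 genes. Of these 6 genes, DKK1, LEF1, RSPO3 and WNT5A have their promoters shown because they have at least 5 listed sites in their intervals. Each run is the 250 bases before a transcription start, read on the gene's own strand from 5′ to 3′. Their positions are on GRCh38.p14: chr10:52314031-52314280, plus strand, for DKK1; chr4:108166302-108166551, minus strand, for LEF1; chr6:127118421-127118670, plus strand, for RSPO3; and, for WNT5A, chr3:55487307-55487556 (start A) and chr3:55481399-55481648 (start B), both on the minus strand. They cannot be set against the hg19 positions of the sites, so whether a listed site covers a promoter was not determined. Capitals mark the TCF/LEF core, searched as CTTTGA or CTTTGT on both strands.
DKK1: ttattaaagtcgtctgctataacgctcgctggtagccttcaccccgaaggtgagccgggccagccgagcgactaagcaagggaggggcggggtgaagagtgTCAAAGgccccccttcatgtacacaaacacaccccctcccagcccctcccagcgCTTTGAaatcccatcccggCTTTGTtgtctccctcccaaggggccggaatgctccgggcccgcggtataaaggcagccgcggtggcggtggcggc
LEF1: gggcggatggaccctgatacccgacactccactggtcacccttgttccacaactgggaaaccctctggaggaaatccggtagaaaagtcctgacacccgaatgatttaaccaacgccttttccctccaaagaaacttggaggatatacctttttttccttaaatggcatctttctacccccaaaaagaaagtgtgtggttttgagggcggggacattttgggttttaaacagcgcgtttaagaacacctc
RSPO3: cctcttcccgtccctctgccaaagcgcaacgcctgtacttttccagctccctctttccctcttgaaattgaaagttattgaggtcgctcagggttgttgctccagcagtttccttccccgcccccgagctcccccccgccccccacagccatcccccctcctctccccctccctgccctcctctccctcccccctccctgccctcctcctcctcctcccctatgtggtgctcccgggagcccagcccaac
WNT5A start A: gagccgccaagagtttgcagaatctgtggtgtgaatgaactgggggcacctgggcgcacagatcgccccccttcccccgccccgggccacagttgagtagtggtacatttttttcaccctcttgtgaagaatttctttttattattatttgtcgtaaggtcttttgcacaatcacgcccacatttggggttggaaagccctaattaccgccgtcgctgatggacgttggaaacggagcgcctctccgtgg
WNT5A start B: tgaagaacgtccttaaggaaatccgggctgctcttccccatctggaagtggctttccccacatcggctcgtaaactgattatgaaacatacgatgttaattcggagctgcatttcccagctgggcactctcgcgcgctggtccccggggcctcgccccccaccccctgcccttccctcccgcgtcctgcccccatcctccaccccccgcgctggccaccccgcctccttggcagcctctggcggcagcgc

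The DKK1 promoter held 3 TCF/LEF cores, which began 149, 95 and 76 bases before the start, the first of them on the opposite strand. It was the only one of the 7 promoter sequences read with a match, the unprinted ones of WNT6 and WNT10A included. None of the 7 belonged to SFRP1 or AXIN2, so the counts say nothing about these genes. Of all 35116 RefSeq promoter windows of this length, 22.8% held a TCF/LEF core. CATG, the core of the p63 binding site, occurred in 2 of the 7, those of DKK1 and WNT10A, against 47.6% of all windows. AGGTCA, the half-site of retinoic acid and other nuclear receptors, occurred in 0 of the 7, against 12.1% of all windows. Both were searched on both strands, and a match or its absence describes these letters only.

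The count from each list varied between the intervals, while 42.5% of all listed sites were p63-closed. The grouping below follows these same counts, and 0 of the windows tested further below that hold the intervals had a split that passed. With so few sites in a window, that outcome does not show an even split. Those of WNT5A and RSPO3 held mostly p63-closed sites, with 16 of these and 2 opened sites between them. Those of LEF1, SFRP1 and DKK1 held mostly opened sites, with 19 of these and 5 p63-closed sites. The remaining intervals, of WNT6 with WNT10A and of AXIN2, held 1 site each. Both lists were present in 4 of the 7 intervals.

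**Figure D1:**
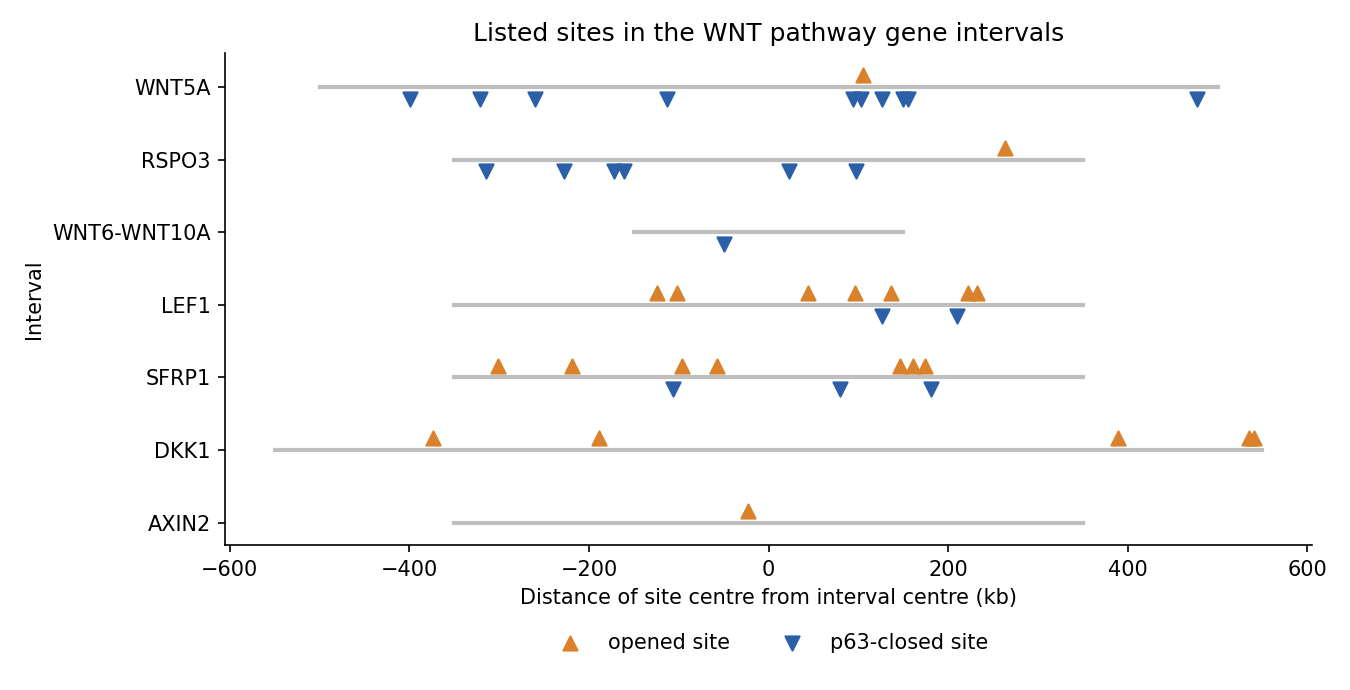
Position of each of the 44 listed sites, as the distance of its centre from the interval's centre in kb, with 1 row per interval, grey lines for the interval's extent, triangles pointing up for opened sites and triangles pointing down for p63-closed sites. WNT5A and RSPO3 have 1 opened site each, beside 10 and 6 p63-closed sites, and DKK1 has 5 opened sites and no p63-closed site.

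Set beside the whole lists, the intervals together held 4.23 opened sites per Mb (exact Poisson 95% interval 2.65 to 6.41), against 2.79 over the 2927 Mb that the listed sites of all chromosomes span. They held 4.23 p63-closed sites per Mb (2.65 to 6.41), against 2.06. The p63-closed share of their sites was 50% (exact Clopper-Pearson 95% interval 34.6 to 65.4%), against 42.5% of all listed sites. These intervals cover counting error only and take each site as independent of its neighbours, which it is not. The genes and their intervals were also chosen with earlier results of these data known. The densities, and the shares of tiles given below, are therefore descriptions and not tests. The pooled share moved with the intervals included: without WNT5A it was 36.4%, and without LEF1 it was 57.1%.

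**Figure D2:**
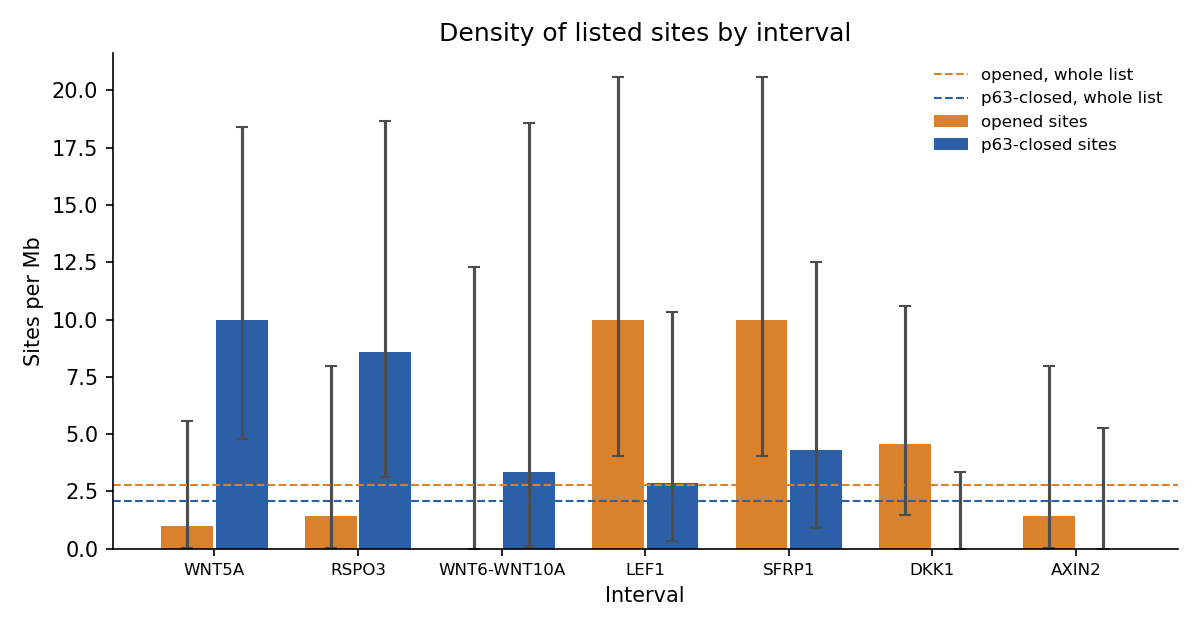
Sites per Mb in each interval, with opened sites in orange and p63-closed sites in blue, exact Poisson 95% intervals as error bars, and the density of each whole list as a dashed line. The p63-closed bars of WNT5A and RSPO3 stand at 10.0 and 8.57 sites per Mb, and the opened bars of LEF1 and SFRP1 at 10.0 each.

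Among the ligands, WNT5A is best known for signalling through the receptor ROR2 outside the beta-catenin branch. Its interval, chr3:55000001-56000000, held 10 p63-closed sites and 1 opened site. The p63-closed density was 10.0 per Mb (95% interval 4.80 to 18.4) and the opened density 1.00 per Mb (0.0253 to 5.57). Cutting every chromosome into tiles of the same length gave 2902 tiles, of which 1.38% held at least 10 p63-closed sites, and the median tile held 1.

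The WNT5A sites were unevenly placed. Along the first part of the interval, 4 p63-closed sites lay well apart, at chr3:55100530-55101316, chr3:55177109-55179269, chr3:55239710-55240462 and chr3:55385881-55387460. Then 5 more p63-closed sites and the 1 opened site lay within 63.4 kb, at chr3:55593126-55656523. This was the densest stretch of 100 kb in any of the 7 intervals. The last p63-closed site, chr3:55976382-55977707, came after 320 kb with no listed site.

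Within that stretch the opened site, chr3:55604230-55604868, lay next to a p63-closed site, chr3:55602823-55603881. The gap was 348 bp, and their site names carry consecutive numbers. It was the closest pair of sites from different lists in the 7 intervals. At 639 bp the opened site was also the narrowest opened site among them, wider than only 1.05% of the opened list. The closest pair of p63-closed sites was chr3:55649002-55650471 and chr3:55653732-55656523, 3260 bp apart. The second of these, at 2792 bp, was the widest of all 44 sites and wider than 93.9% of the p63-closed list.

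WNT6 and WNT10A are ligands expressed in ectoderm, and WNT10A is a human disease gene for missing teeth and ectodermal dysplasia. They are direct neighbours in the RefSeq gene table, and their shared interval, chr2:219600001-219900000, is the shortest. It held 1 site, the p63-closed site chr2:219699147-219700771, of 1625 bp. Of 9732 tiles of that length, 36.3% held at least 1 p63-closed site and 35.5% held no site of either list. The site stood alone: the nearest listed site was an opened one 523 kb away, and the nearest p63-closed site was 891 kb away.

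RSPO3 encodes an R-spondin, which acts through LGR receptors to remove the ubiquitin ligases that clear Frizzled. Its interval, chr6:127100001-127800000, held 6 p63-closed sites and 1 opened site. The p63-closed density was 8.57 per Mb (95% interval 3.15 to 18.7) and the opened density 1.43 per Mb (0.0362 to 7.96). Of 4158 tiles of this length, 4.06% held at least 6 p63-closed sites.

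The RSPO3 sites were spread more evenly than those of WNT5A. The p63-closed sites lay at chr6:127134560-127136431, chr6:127221677-127222660, chr6:127276646-127277817, chr6:127287792-127289196, chr6:127472100-127472772 and chr6:127546244-127547858. Neighbouring sites had a median distance of 80.6 kb between centres, against 42.4 kb in the WNT5A interval. Over all listed sites it was 96.4 kb, a value that, unlike those of the intervals, is not limited to pairs inside an interval. The closest pair of p63-closed sites, chr6:127276646-127277817 and the next in that order, was 9974 bp apart. The opened site, chr6:127712284-127714655, lay beyond all of them, 166 kb from the nearest p63-closed site. It was 2372 bp wide, against a median of 1289 bp (range 673 to 1872) for the p63-closed sites of the interval.

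LEF1 is a DNA-binding partner of beta-catenin that mice need for hair follicles and teeth. Its interval, chr4:108700001-109400000, held 7 opened sites and 2 p63-closed sites. The opened density was 10.0 per Mb (95% interval 4.02 to 20.6) and the p63-closed density 2.86 per Mb (0.346 to 10.3). Of the 4158 tiles of this length, 3.13% held at least 7 opened sites.

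All 9 LEF1 sites lay in the 359 kb from chr4:108924730 to 109283374. The opened sites were chr4:108924730-108926080, chr4:108947531-108948788, chr4:109092408-109094813, chr4:109145174-109146732, chr4:109186106-109187356, chr4:109270697-109273199 and chr4:109280823-109283374. The last pair was the closest pair of opened sites, 7623 bp apart. Both p63-closed sites lay between opened ones. The first, chr4:109175126-109177179, was 8926 bp from the next opened site. The second, chr4:109258100-109260420, was 2321 bp wide, more than 85.6% of the p63-closed list, and 12.7 kb by centres from its nearest opened site. Of the 7 opened sites, 3 were between 2406 and 2552 bp wide, and 4 were between 1251 and 1559 bp.

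DKK1, DKK being short for Dickkopf, is a secreted inhibitor that binds the LRP co-receptors. Its interval, chr10:53700001-54800000, is the longest, and its sites all came from 1 list: 5 were opened and 0 were p63-closed. The opened density was 4.55 per Mb (95% interval 1.48 to 10.6). The p63-closed count of 0 allows up to 3.35 per Mb by the exact interval, above the 2.06 per Mb of the whole list, so a lower density was not detectable from so few sites. Of 2634 tiles of this length, 23.0% held at least 5 opened sites.

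In the DKK1 interval the sites stood far apart, except for a close pair at its far edge. The sites were chr10:53874984-53877493, chr10:54059857-54061261, chr10:54638786-54640202, chr10:54784145-54785776 and chr10:54789015-54791014. After the second of them came 578 kb with no listed site, the longest such gap within any of the 7 intervals. The last pair was 3238 bp apart and carried consecutive numbers in the site names. The widest site was the first, with 2510 bp.

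SFRP1 encodes a secreted Frizzled-related protein that binds WNT ligands outside the cell. Its interval, chr8:40800001-41500000, held 7 opened sites and 3 p63-closed sites. These were the same number of opened sites and 1 more p63-closed site than LEF1 had in an interval of equal length. The opened density was 10.0 per Mb (95% interval 4.02 to 20.6) and the p63-closed density 4.29 per Mb (0.884 to 12.5). The share of tiles with at least 7 opened sites was again 3.13%.

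Opened and p63-closed sites were interleaved around SFRP1. Of 9 pairs of neighbouring sites, 5 joined the lists, the most in any interval. The closest mixed pair was the opened site chr8:41323581-41325092 and the p63-closed site chr8:41330016-41331155, 4923 bp apart. A second p63-closed site, chr8:41043048-41044511, had an opened site 9.75 kb away by centres, chr8:41052185-41054877. This opened site, at 2693 bp, was the widest opened site of the 7 intervals and wider than 91.3% of the opened list. The third p63-closed site, chr8:41228642-41229650, stood 67.4 kb from the nearest listed site. The other opened sites were chr8:40847491-40849158, chr8:40930251-40931785, chr8:41091980-41094051, chr8:41295998-41297126 and chr8:41310002-41310812.

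AXIN2, a scaffold of the beta-catenin destruction complex, is a widely used target gene of the canonical branch and feeds back on it. Its interval, chr17:63200001-63900000, held 1 site, the opened site chr17:63526085-63528607. The opened density was 1.43 per Mb (95% interval 0.0362 to 7.96), and 74.8% of tiles of this length held at least 1 opened site. The site was 2523 bp wide, more than 88.3% of the opened list. It was isolated, with the nearest opened site 676 kb away and the nearest p63-closed site 714 kb away.

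The split between the lists was then tested in fixed windows of 1 Mb across all chromosomes, by setting each window against all other sites (Fisher's exact test, two-sided). Of 1072 windows with at least 6 sites, 10 passed an adjusted p of 0.05 (Benjamini-Hochberg), or 0.933%. The 7 intervals fall in 10 windows, of which 7 had at least 6 sites, and 0 of these passed. The largest unadjusted p among the windows that passed was 0.000276 (Fisher's exact test). A window of few sites may not reach this under any split. Not passing therefore does not show that a window is split like the whole list. Without adjustment, 2 of the 7 had a p below 0.05, those of WNT5A and RSPO3, against 226 of 1072 windows (21.1%). The WNT5A window, which equals its interval, was the nearest to the threshold (10 p63-closed and 1 opened; Fisher's exact test, adjusted p = 0.0666). In all, 11 tested windows, the WNT5A window included, held at least 10 p63-closed sites at as high a share. The RSPO3 window held 7 p63-closed and 1 opened site (Fisher's exact test, adjusted p = 0.142). The window with most of the LEF1 sites held 9 opened and 3 p63-closed sites (Fisher's exact test, adjusted p = 0.552), and that with most of the SFRP1 sites held 6 opened and 3 p63-closed sites (Fisher's exact test, adjusted p = 0.935). The window chr10:54000001-55000000, which holds 4 of the DKK1 sites, had 4 opened and 0 p63-closed sites and was too small to be tested. The test takes neighbouring sites as independent.

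**Figure D3:**
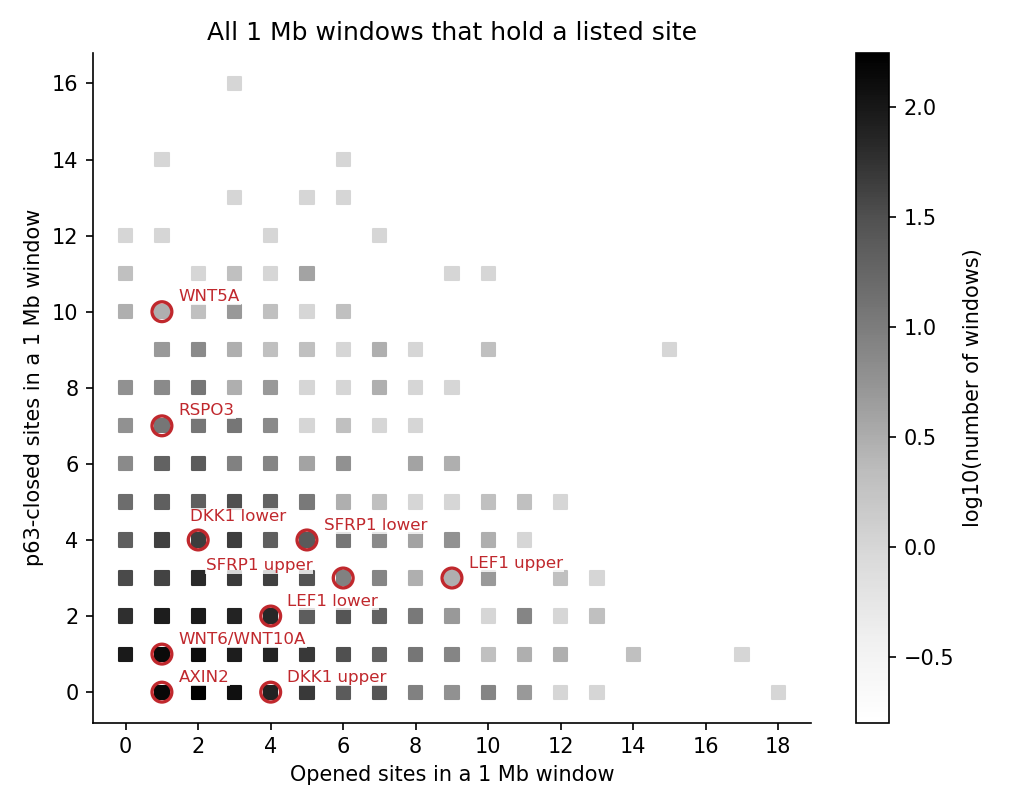
Number of p63-closed sites against number of opened sites in every fixed 1 Mb window that holds a listed site, shaded by the log10 number of windows at each point, with red circles for the 10 windows that hold the intervals (lower and upper where an interval spans a pair of windows). The WNT5A window lies at 1 opened and 10 p63-closed sites, near the left edge, and the upper LEF1 window at 9 and 3.

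Neighbouring sites were mostly of 1 list, in the intervals as over all listed sites. Of 37 pairs of neighbouring sites, 25 (67.6%) came from the same list, 12 of them both opened and 13 both p63-closed, against 61.5% of 14168 pairs over all listed sites. The median distance between neighbours was 55.1 kb, against 96.4 kb. Only pairs with both sites in the same interval entered the first value, so gaps that cross an edge were left out. The second value has no such limit, so these values are not like for like. The opened sites had their nearest opened site at a median of 40.1 kb, against 74.7 kb for the whole list, and their nearest p63-closed site at 97.7 kb, against 197 kb. For the p63-closed sites both medians were close to those of the whole list, at 74.6 kb against 74.6 kb for the same list and 117 kb against 120 kb for the other. These distances are descriptions, and their relation to the density of sites was not tested.

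Widths were then compared with those of the whole lists. The median of the 22 opened sites was 1596 bp (range 639 to 2693), against 1597 bp for the whole list, and 11 of 22 were wider than that. The 22 p63-closed sites had a median of 1467 bp (range 673 to 2792), against 1531 bp, and 10 of 22 were wider. None was close to the widest of either list, 12362 bp for opened and 5624 bp for p63-closed sites. All 44 sites covered between 0.360% (AXIN2) and 2.47% (LEF1) of their interval.

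**Figure D4:**
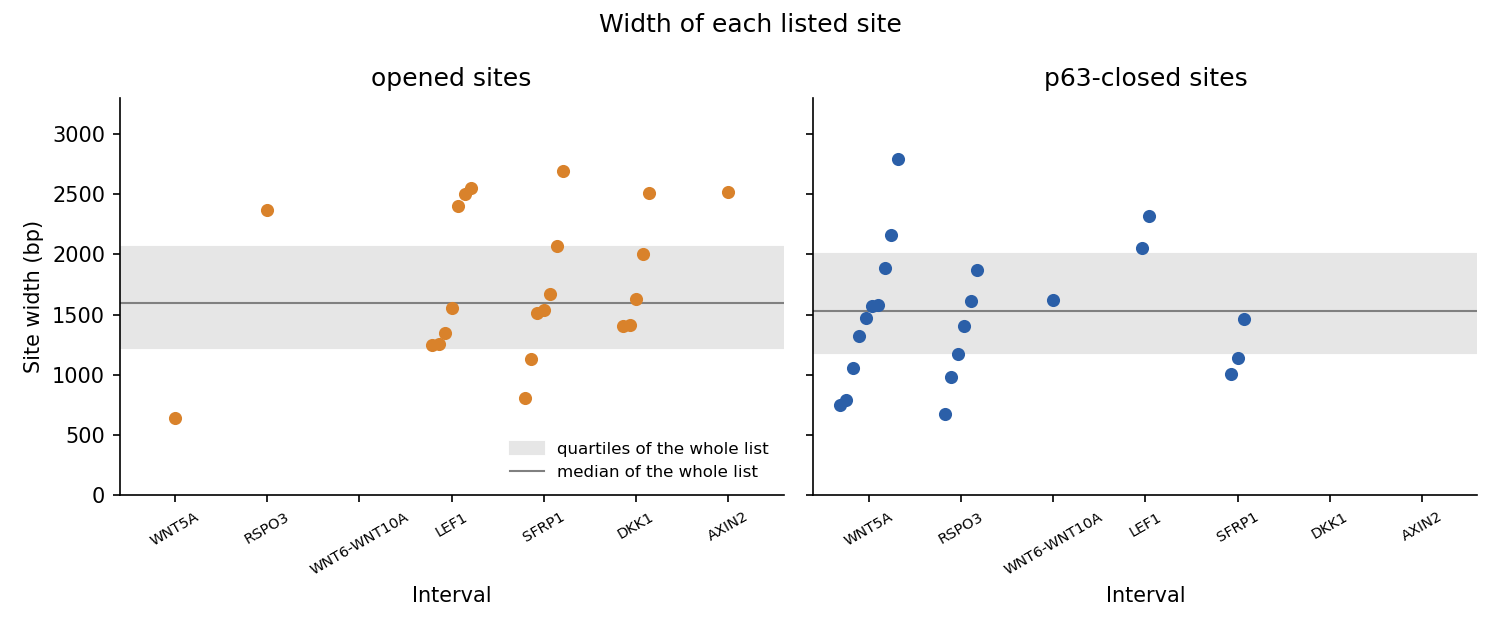
Width in bp of each opened site (left) and p63-closed site (right) by interval, with the quartiles of the whole list as a grey band and its median as a line. The opened sites run between 639 and 2693 bp and the p63-closed sites between 673 and 2792 bp, on both sides of the medians of 1597 and 1531 bp.

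The edges of the intervals decided few sites. The nearest site inside an edge was an opened one of the DKK1 interval, 9.99 kb from its end. The nearest outside was an opened site 3.26 kb beyond the end of the WNT5A interval. The first listed site before the start of the WNT5A interval was p63-closed and 64.2 kb away, and the first before that of RSPO3 was p63-closed and 81.4 kb away. Other genes lie next to these. In the order of the RefSeq gene table, WNT5A lies between LRTM1 and ERC2, RSPO3 between CENPW and RNF146, LEF1 next to HADH, DKK1 between CSTF2T and MBL2, SFRP1 between ZMAT4 and GOLGA7, and AXIN2 between RGS9 and CEP112. Which gene a site acts on was not tested, and whether a site is exonic, intronic or between genes was not determined, as no hg19 annotation was used.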

How the data were processed

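The data were 2 lists of accessible sites in BED format, deposited by the authors, with 4 columns (chromosome, start, end and site name) and no value per sample. Per the submitters' processing notes, the tools were DESeq2, MACS2, SAMtools, Bowtie2 and FastQC (no versions) and the builds GRCh37 and hg19. What each tool did, its thresholds and whether replicates were pooled is not given in the sources used here.

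Starts were made 1-based. A site belonged to an interval when its centre lay inside. The genes, intervals and lists were chosen with earlier results of these data known. All 8 genes were described and every site in their intervals was accounted for, with the widest sites and closest pairs given by position. Densities used the span from the first to the last site listed on each chromosome. Tiles as long as each interval were laid end to end within that span. The split between the lists was tested in all fixed 1 Mb windows with at least 6 sites by Fisher's exact test with Benjamini-Hochberg adjustment. The procedure was first tried on simulated data, in which each site's list was drawn independently and only windows with many sites were changed. That trial does not cover dependence between neighbouring sites or changes in windows of few sites. Promoters came from RefSeq (GRCh38.p14), with those of member genes on chromosome 8, and so SFRP1, left out. The set of all promoter windows was not filtered in this way. Alternatives changed membership, interval ends, joining of close sites, the background and the windows. Other WNT pathway genes were not analysed here, since their hg19 positions were not used. Scripts ran on Python 3.11.15 with scipy 1.17.1, numpy 2.4.6, matplotlib 3.10.9 and pandas 2.3.3.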

Additional observations from a re-analysis of the deposited data

How the results depend on the processing

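No paired analysis was possible because the deposited lists give positions and no measurement for any sample, so no replicate could be left out either. Of 24 alternatives for the totals, densities and window count, 22 stayed within 1.5 times the count or within the counting interval of the value. The exceptions were the number of windows with an uneven split, 10 in all, which was 3 with windows shifted by 500 kb and 1 with windows of 500 kb; the cause was not tested. Any overlap with the interval in place of the centre left 22 opened and 22 p63-closed sites. Joining sites of a list within 10 kb left 20 and 19, widening the intervals by 100 kb at both ends gave 24 and 24, and shortening them by 50 kb gave 19 and 20. The p63-closed share ran between 36.4 and 57.1% when each interval was left out in turn, on both sides of the 42.5% of all listed sites. These values were classed as unchanged only because the counting interval is wide (34.6 to 65.4%). Against autosomal windows that hold a listed site, the density ratios were 1.41 (opened) and 1.83 (p63-closed), where those against the whole span were 1.52 and 2.05.

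Of 70 alternatives by interval, 66 were classed as unchanged. For counts this meant within 1.5 times the count. For windows it meant the same side of the whole-list share and the same test outcome, with no bound on the value. Widening gave WNT5A 3 opened sites in place of 1, and shortening left DKK1 3 opened sites in place of 5. The tested window with the smallest adjusted p overlapping the DKK1 interval held 66.7% p63-closed sites. It held only 1 DKK1 site, and its 4 p63-closed sites lie outside the interval, which has 0. The value was 36.4% with shifted windows and 0% when windows needed only 4 sites. These are different windows, and none passed the test. The smallest adjusted p by Fisher's exact test around RSPO3 was 0.0515, in a shifted window with 11 p63-closed and 1 opened site. This window, chr6:126500001-127500000, begins before the RSPO3 interval. The interval has only 6 p63-closed sites, so others of the 11 lie outside it. The interval's own opened site, chr6:127712284-127714655, lies outside the window. Around WNT5A the adjusted p ran between 0.0666 and 0.205. The lists hold no score, so a stricter threshold could not be tried, and a site missing from a list is not shown to be unchanged.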
